A study of Mus musculus with 15 samples.

Results

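The genes described here are 9 components, receptors and regulators of complement, the set of plasma and tissue proteins that tags particles and cells for clearance. They are C1qa, C1qb, C1qc, C4b, C3, Cfb, C7, C3ar1 and Serping1, which were taken by symbol from the 55401 genes of the tables. The choice of these genes was made with earlier results of these data known, so that their counts against all genes are a description. All 9 are protein-coding genes on the minus strand. RNA was measured in hearts of male C57BL6 mice aged 12 weeks that received saline (n = 4) or isoproterenol, an agonist of β-adrenergic receptors, under the skin at 50 mg/kg/day. Isoproterenol was given for 4 days (n = 4), 8 days (n = 3) or 11 days (n = 4), so 15 libraries were compared, made from ventricular RNA. The labels name no genetic change, and the day on which saline hearts were taken is not given in the sources used here. Libraries are named by group and by the letter of the replicate. The sources do not say that each library is a separate animal, so that p-values measure the spread between these samples. Below, the word heart is used for a library.

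Complement can be started by C1q, a recognition protein built from the chains encoded by C1qa, C1qb and C1qc, which binds antibody and damaged cells and activates the proteases C1r and C1s. These cleave C4 and C2 and lead to cleavage of C3, the step at which all routes meet. The alternative route amplifies C3 cleavage through factor B, encoded by Cfb, while C7 belongs to the terminal complex that inserts into membranes. C3ar1 encodes the receptor for the C3a fragment, and Serping1 encodes C1 inhibitor, which blocks C1r, C1s and the lectin pathway proteases. Plasma complement comes largely from the liver, but tissue macrophages are a main source of C1q, and fibroblasts transcribe several components.

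Libraries held between 25.4 and 117.8 M counts, of which 47.5 to 58.4% came from mitochondrial genes. A set of 10 cardiomyocyte markers summed to 68300 to 82200 CPM (counts scaled to a common library size), in keeping with the tissue label. The 8-day replicate A stood apart, with 15.8% of its counts in CT010467.1 and Lars2 against at most 0.0916% elsewhere. Depth was uneven within groups. Saline replicates A and C (55.6 and 117.8 M) were deeper than B and D (32.8 and 28.9 M), and 4-day replicates A and C (99.3 and 90.8 M) were deeper than B and D (38.1 and 27.9 M). In the text, CPM are scaled by trimmed mean of M-values (TMM) over all libraries, and differences are log2 fold changes ± SE from edgeR with its adjusted p, called at 0.05.

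Per transcript length, the 9 genes covered a wide range in saline hearts. Serping1 was highest, at 17.5 ± 1.34 FPKM (a level per transcript length and library size, SD, n = 4), followed by C3 at 16.2 ± 6.50, C1qa at 15.6 ± 3.84, C1qb at 10.7 ± 2.56 and C1qc at 10.5 ± 1.61. The ranges of neighbouring genes overlapped among these 5. A gap of 4.07-fold in mean FPKM separated them from C7 at 2.58 ± 1.51, C4b at 1.21 ± 0.301 and C3ar1 at 0.768 ± 0.118, whose neighbours again overlapped. Cfb was lowest, at 0.340 ± 0.0476 FPKM, and did not overlap C3ar1. After 4 days C1qa was first (31.3 ± 7.64 FPKM) and after 11 days C3 was (25.9 ± 4.64 FPKM), but in each case the range overlapped that of Serping1. The FPKM of 8-day replicate A are divided by a total that includes the 15.8% above, which TMM-scaled CPM largely avoid.

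**Figure D1:**
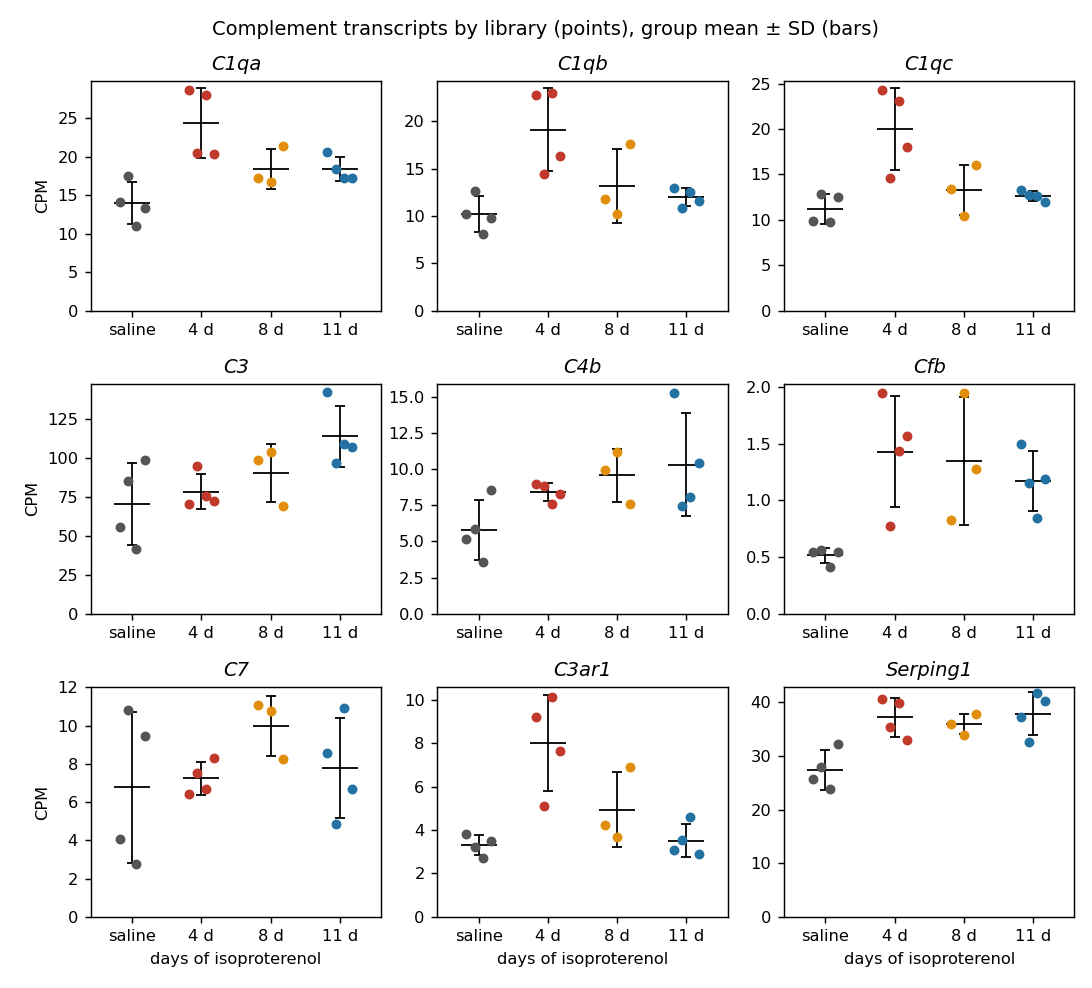
CPM (TMM-scaled, y axis from 0) of the 9 complement genes in each of 15 hearts (points) for saline and for 4, 8 and 11 days of isoproterenol (x axis), with the mean ± SD of each group as bars. The C1q chains and C3ar1 were highest at 4 days, Cfb and Serping1 lay above every saline heart at each time, and C3, C4b and C7 overlapped saline at each time. Of all genes, 8%, 6.88% and 5.85% lay above every saline heart at 4, 8 and 11 days.

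After 4 days of isoproterenol, 6 of the 9 genes were higher than in saline, against 6.05% of all 26862 genes tested being called higher. These were the 3 C1q chains, C3ar1, Cfb and Serping1, and in each of them every 4-day heart lay above every saline heart, as was the case for 8% of all genes. The median log2 fold change of the 9 genes was 0.82, against 0.01 over all genes. After 8 days only Cfb was called higher (1.07% of all genes were), and after 11 days Cfb and Serping1 were (1.8% of all genes). The median of the 9 genes was 0.40 after 8 days and 0.39 after 11 days, against -0.01 over all genes at both times. The 3 comparisons share their saline hearts. In tissue RNA, more cells of a type and more RNA per cell cannot be told apart.

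**Figure D2:**
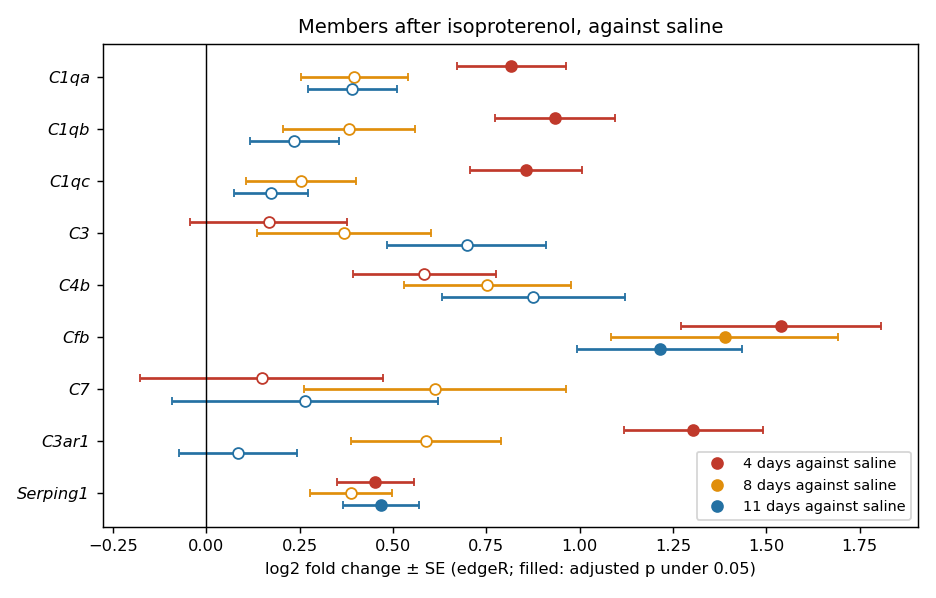
Log2 fold change ± SE (x axis, edgeR) of each of the 9 genes (rows) after 4, 8 and 11 days of isoproterenol against saline, with filled points for adjusted p under 0.05. Filled points number 6 at 4 days, 1 at 8 days and 2 at 11 days, and Cfb is filled at all times.

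The C1q chains rose together at 4 days. C1qa (chromosome 4, 136895917 to 136898803, GRCm38) stood at 14.2, 17.5, 11.0 and 13.4 CPM in saline replicates A to D and at 28.7, 20.5, 28.1 and 20.4 CPM in 4-day replicates A to D. It read 17.2, 16.7 and 21.4 CPM at 8 days and 20.6, 18.5, 17.2 and 17.3 CPM at 11 days. The lowest 4-day heart thus lay above the highest saline heart, while 8- and 11-day hearts overlapped saline. Against saline, C1qa was higher by 0.82 ± 0.15 at 4 days (adjusted p = 0.00336, edgeR), and differed by 0.40 ± 0.14 at 8 days (adjusted p = 0.22) and 0.39 ± 0.12 at 11 days (adjusted p = 0.0947). It passed the threshold without saline replicate B at 8 days (adjusted p = 0.0386) and at 11 days (adjusted p = 0.00963). At 11 days it was also called by DESeq2 (adjusted p = 0.0465). In edgeR it was called with no filter on low counts (0.0439) and with a replicate block (0.0296). The other 8 of 11 ways of processing did not call C1qa at 11 days.

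C1qb (chromosome 4, 136880129 to 136886187) measured 10.2, 12.6, 8.11 and 9.75 CPM in saline and 22.8, 14.5, 23.0 and 16.4 CPM at 4 days. C1qc (chromosome 4, 136889804 to 136893065) measured 9.85, 12.9, 9.79 and 12.5 CPM in saline and 24.3, 14.6, 23.1 and 18.03 CPM at 4 days. For both chains, 4-day replicates A and C were the high pair and B and D the low pair. The 8-day hearts held 11.8, 10.2 and 17.6 CPM of C1qb and 13.4, 10.5 and 16.0 CPM of C1qc, with replicate C highest for both. The 11-day hearts, at 10.9 to 13.0 CPM of C1qb and 11.9 to 13.3 CPM of C1qc, were back among or just above the saline values. C1qb was higher by 0.93 ± 0.16 (adjusted p = 0.00259, edgeR) and C1qc by 0.86 ± 0.15 (adjusted p = 0.00306) at 4 days. At 8 days they differed from saline by 0.38 ± 0.18 (C1qb, adjusted p = 0.385) and 0.25 ± 0.15 (C1qc, adjusted p = 0.517), and at 11 days by 0.24 ± 0.12 (C1qb, adjusted p = 0.332) and 0.17 ± 0.10 (C1qc, adjusted p = 0.417).

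The proportions of the chains varied less than their levels. Within a library, the ratio of C1qb to C1qc in FPKM lay between 0.872 and 1.22 over the 15 hearts. That of C1qa to C1qb lay between 1.28 and 1.79, and that of C1qa to C1qc between 1.26 and 1.88. The mean ratio of C1qa to C1qb (± SD) was 1.45 ± 0.02 in saline and 1.36 ± 0.09 at 4 days. It was 1.52 ± 0.23 at 8 days and 1.62 ± 0.15 at 11 days. Over the 15 libraries, Pearson's r of log2(CPM + 1) was 0.957 for C1qb with C1qc, 0.946 for C1qa with C1qb and 0.898 for C1qa with C1qc (Spearman's rho 0.929, 0.932 and 0.879). These are descriptions across libraries that share their depth and scaling. Of 8540 genes with a mean of at least 5 CPM, those most like C1qa were Lyz2, the lysozyme of macrophages (r = 0.967), Cavin3 (r = 0.958) and Arpc3 (r = 0.951). Beside each other, C1qb was most like Lyz2 (r = 0.956) and Map1a (r = 0.952), and C1qc most like Myof (r = 0.962) and Lamc1 (r = 0.956), the laminin γ1 chain of basement membranes.

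The DNA before the start sites of the chains is shown to place these genes and their motifs. RefSeq promoter entries of GRCm38.p6 were matched for 5 of the 9 genes, namely C1qb, C1qc, C3, C7 and C3ar1. The 250 bases before the RefSeq start were searched on both strands for 6 motifs, which are in capitals where they were found. These were the core of the interferon-stimulated response element, with GAAA repeated after any 2 bases, TTCNNNGAA (STAT), GAGGAAGT (PU.1, a factor of myeloid cells), TTGCNNAA (C/EBP), TATAAA and the NF-κB consensus. For C1qb no match lies in chr4:136886201-136886450, minus strand:
C1qb: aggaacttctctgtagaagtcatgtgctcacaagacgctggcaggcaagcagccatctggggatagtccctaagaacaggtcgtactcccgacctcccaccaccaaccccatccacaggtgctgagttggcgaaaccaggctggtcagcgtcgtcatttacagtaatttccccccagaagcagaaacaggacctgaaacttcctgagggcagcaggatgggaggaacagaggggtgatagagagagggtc
The window of C1qc held a PU.1 match on the opposite strand, from -195 to -188, and an NF-κB match from -41 to -32, counted back from the RefSeq start. That start lies inside the gene as annotated in GENCODE, and so does the NF-κB match, while the PU.1 match lies before the gene. Of 32851 promoters of this length, 2.44% held the PU.1 letters and 3.9% the NF-κB consensus. A match is only a match of letters, and the absence of one says nothing of the factor.

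C3ar1, the C3a receptor, had the largest rise of the 9 genes after Cfb at 4 days and the largest return. C3ar1 (chromosome 6, 122847138 to 122856161) measured 3.80, 3.21, 2.73 and 3.50 CPM in saline and 9.18, 5.08, 10.1 and 7.62 CPM at 4 days, so that the lowest 4-day heart exceeded the highest saline heart. At 8 days it measured 4.24, 3.68 and 6.89 CPM and at 11 days 3.06, 3.52, 4.59 and 2.89 CPM, so that hearts at both times overlapped the saline range. The difference from saline was 1.304 ± 0.186 at 4 days (2.47-fold, adjusted p = 0.000903, edgeR), 0.59 ± 0.20 at 8 days (adjusted p = 0.184) and 0.09 ± 0.16 at 11 days (adjusted p = 0.854). The 11-day value turned below 0 without saline replicate C (-0.01) or 11-day replicate C (-0.07). Genes most like C3ar1 over the 15 libraries were the collagen genes Col6a1 (r = 0.965) and Col3a1 (r = 0.955) and the procollagen protease Adamts2 (r = 0.953). Its RefSeq window, chr6:122856158-122856407, minus strand, has TATAAA far from the start, from -235 to -230, a hexamer that 12.4% of all promoters held:
C3ar1: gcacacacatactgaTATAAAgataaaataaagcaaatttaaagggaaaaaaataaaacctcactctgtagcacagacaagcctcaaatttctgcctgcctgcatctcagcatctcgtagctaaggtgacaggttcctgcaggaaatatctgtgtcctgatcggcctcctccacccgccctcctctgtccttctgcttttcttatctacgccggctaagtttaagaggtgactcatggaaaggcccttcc

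The fall from 4 to 11 days was tested directly, in a fit of all 15 libraries. C3ar1 was lower at 11 than at 4 days by 1.21 ± 0.21 on the log2 scale (-1.21, adjusted p = 0.00118, edgeR). C1qb differed by -0.69 ± 0.17 (adjusted p = 0.0137) and C1qc by -0.67 ± 0.14 (adjusted p = 0.00629), while C1qa, at -0.42 ± 0.14, was not called (adjusted p = 0.066). These 3 of 9 genes compare with 5.28% of all genes called lower, and limma on log2(FPKM + 0.1) called none of the 3. Of all genes, that limma setting called 335 between these times, against 2178 by edgeR. The call of C1qb was lost without 4-day replicate A (-0.60, adjusted p = 0.0641) or C (-0.595, adjusted p = 0.0542), and that of C1qa was gained without saline replicate B (adjusted p = 0.0376) or C (0.041) or 4-day replicate B (0.0278) or D (0.0453). C1qa was also called by DESeq2 (adjusted p = 0.0328). In edgeR it was called with no filter (0.032) and with the 2 groups alone (0.0284), while 8 of 11 alternatives did not call C1qa. Between 8 and 4 days none of the 9 genes was called, against 0.785% of all genes called lower; unadjusted p was under 0.05 in edgeR for 4 of them (C1qa, C1qb, C1qc and C3ar1), and DESeq2 called 1. The largest of these differences were those of C3ar1 at -0.70 ± 0.23 (adjusted p = 0.165) and C1qc at -0.59 ± 0.16 (adjusted p = 0.084), with C1qb at -0.54 ± 0.18 (adjusted p = 0.19) and C1qa at -0.41 ± 0.15 (adjusted p = 0.224). Without 4-day replicate B, C1qc (adjusted p = 0.0101) and C3ar1 (adjusted p = 0.0283) passed, and without 8-day replicate C, C1qb, C1qc and C3ar1 did (adjusted p = 0.0443, 0.0479 and 0.0473). Between 11 and 8 days none was called by edgeR or DESeq2, 0.00372% of all genes were called lower, and only C3ar1 had an unadjusted p under 0.05 (-0.51 ± 0.23, adjusted p = 0.506, edgeR). Over the 4 groups together, 7 of the 9 genes differed, all but C3 and C7, against 13% of all genes.

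The summed macrophage markers moved with the C1q chains, but not every marker did. Of 12 macrophage markers, 7 were higher at 4 days, among them Cd68 (1.83 ± 0.24, adjusted p = 0.000589, edgeR) and Lyz2 (1.62 ± 0.23, adjusted p = 0.000882), at 8 days Lyz2 came nearest to the threshold (0.69 ± 0.18, adjusted p = 0.0683), and at 11 days Lyz2 was higher (0.65 ± 0.15, adjusted p = 0.0274) and Cx3cr1 lower (-1.66 ± 0.29, adjusted p = 0.00689). The 5 markers not called at 4 days were Mertk (0.40), Cd14 (0.28), Cd163 (0.08), Cx3cr1 (-0.06) and Lyve1 (-0.38). The summed level of all 12 markers ran from 103 to 167 CPM in saline, 195 to 320 CPM at 4 days, 148 to 194 CPM at 8 days and 154 to 192 CPM at 11 days. The summed C1q chains ran from 28.9 to 43.0 CPM in saline, 49.5 to 75.8 CPM at 4 days, 37.3 to 55.1 CPM at 8 days and 40.8 to 46.9 CPM at 11 days. The quotient of both sums moved far less than either, from 0.221 to 0.287 over all 15 hearts. It ran from 0.257 to 0.281 in saline and 0.229 to 0.254 at 4 days, where every heart lay below every saline heart. At 8 days it ran from 0.251 to 0.283 and at 11 days from 0.221 to 0.287. With Lyz2, the most abundant marker, left out, it ran from 0.378 to 0.412 in saline, 0.424 to 0.493 at 4 days, 0.42 to 0.51 at 8 days and 0.356 to 0.501 at 11 days. The 4- and 8-day hearts then lay above every saline heart. The part of macrophages in the rise of C1q was not tested.

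**Figure D3:**
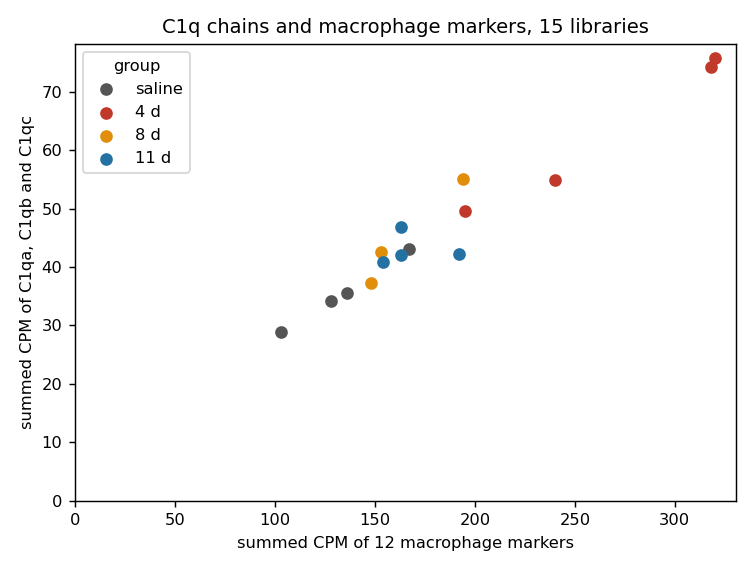
Summed CPM of C1qa, C1qb and C1qc (y axis) against the summed CPM of 12 macrophage markers (x axis) in the 15 hearts, coloured by group. The 4-day hearts reach 75.8 CPM of C1q at 320 CPM of markers, and the quotient stays between 0.221 and 0.287.

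Other cell types were followed in the same way. Fibroblast markers summed to 755 to 924 CPM in saline and 1470 to 4400 CPM at 4 days, 11 of 12 being called higher and 1 lower at 4 days, 4 higher at 8 days and 3 higher at 11 days. The summed level of 8 endothelial markers ran from 307 to 395 CPM in saline and 315 to 404 CPM in treated hearts, and that of 6 mesothelial markers stayed at or under 3.15 CPM in every heart. Neutrophil markers summed to at most 5.94 CPM, with Ly6g at 0 in 11 libraries. Of 10 cardiomyocyte markers, Myl2 (-0.73 ± 0.12, adjusted p = 0.00169, edgeR), Mb (-0.50 ± 0.12, adjusted p = 0.0165) and Tnni3 (-0.50 ± 0.13, adjusted p = 0.027) were lower and Actn2 (0.35 ± 0.10, adjusted p = 0.0443) was higher at 4 days, and of 7 mural cell markers Cspg4 was higher (0.40 ± 0.09, adjusted p = 0.0176) and Kcnj8 lower (-0.32 ± 0.09, adjusted p = 0.0343). Red blood cell markers summed to 106 to 575 CPM in saline and 38.6 to 208 CPM in treated hearts, with 2 of 5 lower at 4 and at 11 days. Of the liver markers, Fgb was at 0 counts in all 15 libraries and Alb at 0 in 13 with at most 2 counts, while Ttr was called higher at 11 days (2.17 ± 0.54, adjusted p = 0.0387, edgeR) on at most 24 counts. Within the 4-day group, the 2 deepest hearts, A and C, had the highest C1q, C3ar1, Serping1 and macrophage marker levels. Without both, a comparison chosen after seeing the data, C3ar1 was still called at 4 days (0.94 ± 0.19, adjusted p = 0.0205, edgeR), and the chains stood at 0.54 to 0.60 with adjusted p = 0.0609 to 0.0839 from 2 hearts against 4. Neither C3ar1 (-0.85, adjusted p = 0.0971) nor C1qb (-0.36, adjusted p = 0.475) nor C1qc (-0.36, adjusted p = 0.344) was then called between 11 and 4 days. Of all genes, 579 were then called at 4 days and 307 between 11 and 4 days, against 2540 and 2178 with all libraries. The part of depth was not tested.

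Cfb, which encodes factor B, was the one gene of the 9 called at all 3 times. Cfb (chromosome 17, 34856374 to 34862518) is rare in these hearts, with 13 to 224 counts a library. It measured 0.540, 0.559, 0.414 and 0.549 CPM in saline, 1.95, 0.770, 1.44 and 1.57 CPM at 4 days, 0.823, 1.95 and 1.28 CPM at 8 days and 1.50, 1.16, 0.843 and 1.19 CPM at 11 days. In CPM each treated heart thus lay above each saline heart, although treated hearts of one time differed by more than 2-fold among themselves at 4 and 8 days. For comparison, treated hearts lay wholly above saline in CPM in 8% of all genes at 4 days, 6.88% at 8 days and 5.85% at 11 days. In FPKM, 8-day replicate A held 0.24 of Cfb, below the saline range of 0.31 to 0.41.

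The log2 fold change of Cfb was 1.54 ± 0.27 at 4 days (2.91-fold, adjusted p = 0.00278, edgeR), 1.39 ± 0.30 at 8 days (2.62-fold, adjusted p = 0.0282) and 1.21 ± 0.22 at 11 days (2.32-fold, adjusted p = 0.00868). The 8-day call was lost when any of 4 libraries was left out, namely saline replicate A (1.43, adjusted p = 0.07), saline replicate C (1.27, adjusted p = 0.076), 8-day replicate B (1.04, adjusted p = 0.16) or 8-day replicate C (1.42, adjusted p = 0.0948), and with effective lengths as offsets. With limma on log2(FPKM + 0.1) neither the 8-day nor the 11-day difference was called. That setting called 5 of 26862 genes at 8 days, 0 of them higher, and 121 at 11 days. Its 8-day result therefore cannot single out Cfb. The 8 annotated transcripts of Cfb took shares of the counts that shifted between libraries, the main one taking 0 to 89.4%, so transcript use cannot be read at this depth. The read-through gene Gm20547 shares 2246 exonic bases with Cfb on the same strand and took 0 to 5.26 counts. The genes most like Cfb were Ly6e (r = 0.903), Ifit2 (r = 0.889) and H2-T22 (r = 0.885), of which Ifit2 and Ly6e are known as interferon-induced and H2-T22 as an MHC class I gene.

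Serping1, the gene of C1 inhibitor, was modestly higher in CPM at each time, though not called at 8 days. Serping1 (chromosome 2, 84765387 to 84775444) measured 25.6, 27.9, 23.8 and 32.3 CPM in saline and 40.5, 35.4, 39.9 and 33.1 CPM at 4 days. At 8 days it measured 35.9, 34.0 and 37.7 CPM and at 11 days 37.2, 32.6, 41.6 and 40.2 CPM. In CPM all 11 treated hearts lay above the highest saline heart, the narrowest gap being that between 32.3 and 32.6 CPM. The same held for 8%, 6.88% and 5.85% of all genes at 4, 8 and 11 days, each time taken alone. In FPKM, 8-day replicate A held 16.9 of Serping1, inside the saline range of 16.1 to 19.3. The log2 difference of Serping1 from saline was 0.45 ± 0.10 at 4 days (1.37-fold, adjusted p = 0.013, edgeR), 0.39 ± 0.11 at 8 days (adjusted p = 0.0968) and 0.47 ± 0.10 at 11 days (1.38-fold, adjusted p = 0.0215).

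These small changes of Serping1 sat close to the threshold. The 4-day call was lost without 4-day replicate A (0.40, adjusted p = 0.0595) or C (0.41, adjusted p = 0.0501), and the 8-day difference was called without saline replicate D (0.46, adjusted p = 0.0386). The 8-day difference was also called by DESeq2 (adjusted p = 0.0339). In edgeR it was called with a replicate block (0.0254) and with all libraries in one fit (0.0466), while 8 of 11 alternatives did not call it. The 11-day call was lost without saline replicate A or C or 11-day replicate A, C or D, at 0.41 to 0.48 with adjusted p = 0.0552 to 0.0689 by edgeR, and it was not called by limma on log2(FPKM + 0.1). Of all genes, that limma setting called 121 at 11 days, against 1006 by edgeR. The main transcript of Serping1 took 93.3 to 95.7% of the counts in every library. The genes most like Serping1 included those of the proteases it inhibits, C1ra (r = 0.928) and C1s1 (r = 0.91), besides Vps13c (r = 0.919), and the ratio of Serping1 to C1s1 in CPM lay between 1.81 and 2.56 over the 15 hearts.

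C3, C4b and C7 missed the threshold against saline at each time. C3 (chromosome 17, 57203970 to 57228136), the central component, measured 55.5, 85.3, 41.5 and 98.9 CPM in saline and 70.7, 94.9, 75.4 and 72.4 CPM at 4 days. It measured 98.6, 104 and 69.4 CPM at 8 days and 143, 96.8, 109 and 107 CPM at 11 days. Saline hearts alone spanned more than 2-fold, and only 1 of them exceeded the lowest 11-day heart. The difference from saline was 0.17 ± 0.21 at 4 days (adjusted p = 0.722, edgeR), 0.37 ± 0.23 at 8 days (adjusted p = 0.563) and 0.70 ± 0.21 at 11 days (adjusted p = 0.0936). The 11-day difference of C3 was called with library size only (0.80, adjusted p = 0.0269) and with no filter on low counts (0.71, adjusted p = 0.0237).

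C4b (chromosome 17, 34728380 to 34743882), the mouse C4 gene, measured 5.18, 5.88, 3.61 and 8.57 CPM in saline and 8.95, 8.83, 7.61 and 8.31 CPM at 4 days. It measured 9.94, 11.2 and 7.59 CPM at 8 days and 15.3, 7.46, 8.05 and 10.4 CPM at 11 days, so that saline replicate D lay inside the treated range and the other saline hearts below it. The difference was 0.58 ± 0.19 at 4 days (adjusted p = 0.077, edgeR), 0.75 ± 0.22 at 8 days (adjusted p = 0.116) and 0.88 ± 0.25 at 11 days (adjusted p = 0.0694). C4b was called at 4 days with library size only (adjusted p = 0.00627) and with no filter on low counts (0.0309), at 8 days with no filter (0.02) and DESeq2 (0.0479), and at 11 days with library size only (0.0224), no filter (0.0138) and all libraries in one fit (0.0299). Over the 4 groups C4b passed at an adjusted p of 0.0479, and 11 of the 15 fits that each left out 1 library lost that call (adjusted p = 0.0109 to 0.154 over the 15), as did 6 of 10 other ways of processing (adjusted p = 0.00905 to 0.166 over the 10). C4a, a near copy in which 35.2% of the 50-base windows of the main C4b transcript recur, took 0.306 to 3.83% of the counts of both genes, and reads from such windows were divided between them by RSEM.

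C7 (chromosome 15, 4988762 to 5063740) measured 4.09, 10.8, 2.77 and 9.46 CPM in saline, 6.44, 7.52, 6.67 and 8.31 CPM at 4 days, 11.1, 10.7 and 8.23 CPM at 8 days and 8.59, 4.85, 10.9 and 6.70 CPM at 11 days. The saline hearts spanned 9 of the 11 treated hearts, 1 heart at 8 and 1 at 11 days lying above them. The difference was 0.15 ± 0.33 at 4 days (adjusted p = 0.862, edgeR), 0.61 ± 0.35 at 8 days (adjusted p = 0.503) and 0.26 ± 0.36 at 11 days (adjusted p = 0.782).

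For C3, C4b, C7, Serping1, C1qc and Cfb, saline replicates A and C were the low pair and B and D the high pair. For Cfb the margin was narrow, with A at 0.540 and D at 0.549 CPM. This is the same division as the depth of these libraries, whose part was not tested. Without saline replicate D, C4b was called at 4 days (0.80, adjusted p = 0.00704, edgeR), 8 days (0.97, adjusted p = 0.0169) and 11 days (1.11, adjusted p = 0.0217), and C3 at 11 days (0.91, adjusted p = 0.0252) and over the 4 groups (adjusted p = 0.0232). Without saline replicate C, the 4-day values of C3 and C7 turned to -0.02 and -0.14 and the 11-day value of C7 to -0.03, and without saline replicate A the 4-day value of C7 was -0.04. Without both deep saline hearts, chosen after seeing the data, C3 read -0.22 and C7 -0.49 at 4 days (adjusted p = 0.477 and 0.0912, edgeR), the chains 0.67 to 0.78 (adjusted p = 0.0715 to 0.0943), and of the 9 genes only C3ar1 was called at 4 days (1.28 ± 0.25, adjusted p = 0.0309) and at 8 and 11 days no gene of the 9 was, by edgeR from 2 saline hearts. Of all genes, 543, 264 and 328 were then called at 4, 8 and 11 days, against 2540, 610 and 1006 with all libraries.

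Among themselves, C3, C4b and C7 were compared over the 15 libraries. Pearson's r was 0.863 for C3 with C4b, 0.707 for C3 with C7 and 0.633 for C4b with C7 (Spearman's rho 0.7, 0.618 and 0.446), while C3 gave 0.234, 0.000684 and -0.0121 with C1qa, C1qb and C1qc. C4b gave 0.451, 0.247 and 0.231 and C7 gave 0.267, 0.204 and 0.167 with the same chains in this order. The genes most like C3 were Utp3 (r = 0.92), Nexn (r = 0.893) and Dnttip2 (r = 0.88), those most like C4b were Mt1 (r = 0.869), C3 and Gys1 (r = 0.86), and those most like C7 were Mcl1 (r = 0.813), Acsl6 (r = 0.758) and Gtf2h1 (r = 0.73). The main transcripts of C3 and C4b took at least 95.7% and 96.0% of the counts of their genes in every library. The RefSeq window of C3, chr17:57228137-57228386, minus strand, held a C/EBP match from -45 to -38, letters that 9.56% of all promoters held:
C3: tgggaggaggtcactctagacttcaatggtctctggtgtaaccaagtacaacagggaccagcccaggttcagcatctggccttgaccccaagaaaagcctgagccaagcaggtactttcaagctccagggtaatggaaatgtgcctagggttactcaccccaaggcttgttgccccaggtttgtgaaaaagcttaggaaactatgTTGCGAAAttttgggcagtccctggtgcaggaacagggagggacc
In the window of C7 a STAT match lay from -164 to -156, the same 9 bases on both strands, and a TATAAA match on the opposite strand from -6 to -1, and 7.02% of promoters held the STAT letters. No window of the 5 genes held the interferon response core, which 2.98% of all promoters held.

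Beyond these 9 genes, 45 further complement genes were listed by role, of which 36 passed the filter on low counts. At 4 days 10 of the 36 were higher and 2 lower (6.05% of all genes were higher and 3.4% lower), with a median log2 fold change of 0.56. At 8 days 1 was higher (1.07% of all genes were). At 11 days 1 was higher and 1 lower (1.8% of all genes were higher and 1.95% lower). The medians at 8 and 11 days were 0.13 and 0.10. Among initiators of the classical and lectin pathways, 3 of 11 tested genes were higher at 4 days, namely the C1s protease gene C1s1 (0.55 ± 0.13, adjusted p = 0.0166, edgeR), the ficolin gene Fcna (1.05 ± 0.25, adjusted p = 0.0166) and the lectin protease gene Masp1 (1.18 ± 0.26, adjusted p = 0.0108). C1s1 was also higher at 8 days (0.65 ± 0.13, adjusted p = 0.015) and missed the threshold at 11 days (0.50 ± 0.13, adjusted p = 0.0569), while Fcna and Masp1 were not called later.

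In the alternative pathway, Cfp, which encodes properdin, the stabiliser of the C3 convertase, was higher at 4 days (1.29 ± 0.15, adjusted p = 0.000341, edgeR) and at 11 days (0.54 ± 0.13, adjusted p = 0.0374). Its 15 values did not overlap between saline (1.69 to 1.94 CPM) and any treated group (2.40 to 5.29 CPM). Such a gap above saline was found in 8% of all genes at 4 days, 6.88% at 8 days and 5.85% at 11 days. In FPKM, 8-day replicate A held 1.34 of Cfp, inside the saline range of 1.16 to 1.57. Among the terminal pathway genes, C6 had the largest difference at 11 days (1.34 ± 0.50, adjusted p = 0.177, edgeR), on 2 to 23 counts a library, and was not called.

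Of 13 tested regulators, 2 were higher and 2 lower at 4 days. The clusterin gene Clu (0.95 ± 0.17, adjusted p = 0.00318, edgeR) and Cd55, the gene of decay-accelerating factor (1.08 ± 0.17, adjusted p = 0.00153), were higher at 4 days and not called at 8 or 11 days. Vtn, which encodes vitronectin (-0.60 ± 0.12, adjusted p = 0.00758), and Csmd1 (-0.79 ± 0.21, adjusted p = 0.0277) were lower at 4 days.

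Of the 7 other receptors, 4 were higher at 4 days. These were Vsig4, a C3b receptor of resident macrophages (2.44 ± 0.39, adjusted p = 0.00169, edgeR), the C5a receptor gene C5ar1 (0.92 ± 0.23, adjusted p = 0.022) and the CR3 subunits Itgam (1.39 ± 0.18, adjusted p = 0.000644) and Itgb2 (1.06 ± 0.25, adjusted p = 0.0167). None of them was called at 8 or 11 days. Itgax, the α chain of CR4, was lower at 11 days (-2.32 ± 0.41, adjusted p = 0.00699) on 2 to 7 counts a library, against 7 to 42 counts in saline.

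The same genes were also compared between times. From 4 to 11 days Cd55, Cfp, C5ar1, Itgam, Itgax, Itgb2 and Vsig4 were lower and Csmd1 was higher. Of all genes, 5.28% were called lower and 2.83% higher between these times. From 4 to 8 days Cd55, Cfp and Itgax were lower, as were 0.785% of all genes. The 11-to-4-day differences of the receptors ran from -0.86 ± 0.21 for C5ar1 (adjusted p = 0.0163, edgeR) to -3.31 ± 0.36 for Itgax (adjusted p = 3.79e-05).

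**Figure D4:**
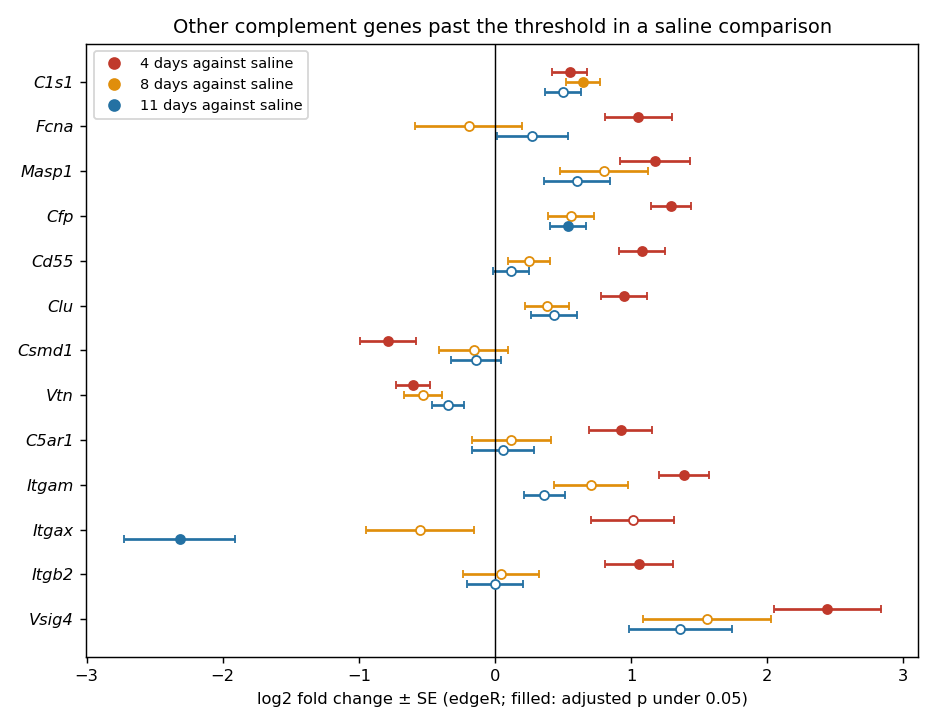
Log2 fold change ± SE (x axis, edgeR) after 4, 8 and 11 days against saline for 13 other complement genes called in at least 1 of these comparisons (rows, by role from initiators to receptors), with filled points for adjusted p under 0.05. Vsig4 reaches 2.44 at 4 days, where 12 of the 13 points are filled.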

How the data were processed

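Total RNA of hearts was made into Illumina TruSeq libraries, of which 15 were used. Per the submitters' notes, reads were trimmed with cutadapt 4.1, aligned to GRCm38.p6 with HISAT2 2.2.1 and quantified with RSEM 1.3.3. The files as deposited by the authors hold RSEM's expected counts (estimated counts, not normalized), FPKM derived from them, effective lengths, and isoform percentages, which were not used. One 8-day library was dropped by the authors for its quality. The annotation release and strand setting of RSEM are not stated. For coordinates, 54349 of the 55401 identifiers were matched in GENCODE M21. Rounded counts were tested for the 26862 genes reaching 10 counts in sum.

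Treated groups were fitted pairwise with saline, and times against each other with all 15 libraries, by two-sided quasi-likelihood tests in edgeR 4.0.16 (R 4.3.3, TMM, Benjamini-Hochberg over all genes), after a trial on simulated data. SE is the size of the log2 fold change over the root of F. The members and lists were chosen with earlier results of these data known. Genes are named if they are members, other complement genes called against saline, overlapping or near-copy genes, or among the 3 of highest r per member. One listed gene is not reported here and was left out of the counts over lists. Members held 13 to 10784 counts a library. Alternatives covered scaling, filters, offsets, dispersions, DESeq2 1.42.0, limma 3.58.1 on log2(FPKM + 0.1) and log2(FPKM + 1), a block on the replicate letter, other sets of libraries, and leaving out the 2 deepest saline or 4-day libraries, the last added after the data were seen.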

Additional observations from a re-analysis of the deposited data

Results flagged for a closer look

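Among 27 groups of 4 hearts (9 genes in 3 groups), 1 held a heart far from the others by Dixon's test at the 95% level, which chance gives in about 1 of 20 groups. Saline replicate C held 0.414 CPM of Cfb, against 0.540 to 0.559 CPM in the other saline hearts, on 49 counts. It was also the deepest library, at 117.8 M counts.

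For 3 of the 9 genes the difference from saline at 4 days and at 11 days differed by the direct test of both times (edgeR, 15 libraries). The log2 difference of 11 against 4 days was -1.21 for C3ar1 (adjusted p = 0.00118), -0.69 for C1qb (adjusted p = 0.0137) and -0.67 for C1qc (adjusted p = 0.00629). Each was lower at 11 days in 4 of 4 hearts than in the lowest 4-day heart. These are the values that the test used, so they add no support to it. The share of all genes with such a gap was not computed.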

How the results depend on the processing

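Counts of called genes are given here for the 9 genes and, after the word others, for the 36 other complement genes. At 4 days 5 to 7 of the 9 genes were called under each of 11 other ways of processing (6 as reported, the 5 being without Cfb), and others gave 4 with limma on log2(FPKM + 0.1) and 5 on log2(FPKM + 1), against 12. At 8 days (1, others 1) the counts were others 0 with library size only, 2 and others 3 without a filter on low counts, 0 and others 0 with effective lengths, others 2 with robust dispersions, 3 and others 2 with DESeq2, 0 and others 0 with either limma scale, and 2 and others 3 with all libraries in one fit. At 11 days (2, others 2) they were 4 with library size only, 5 and others 5 without the filter, others 1 with effective lengths, 3 and others 4 with DESeq2, 3 and others 3 with all libraries in one fit, and 0 and others 0 with either limma scale. Over the 4 groups limma called 1 of 9 on either scale, against 7. Of all genes it called 862 on log2(FPKM + 0.1) and 890 on log2(FPKM + 1), against 3489. Between 8 and 4 days library size only, no filter and DESeq2 each called 1, against 0. Of all genes these settings called 802, 546 and 686, against 273. Between 11 and 4 days limma called 0 on either scale and a fit of the 2 groups alone 5, against 3. Of all genes limma called 335 on log2(FPKM + 0.1) and 370 on log2(FPKM + 1), and the 2 groups alone 2766, against 2178. With library size only, all genes had a median difference of 0.21 (log2) at 4 days and -0.10 at 8 days. Of all genes, calls at 4 days ran from 834 (limma on log2(FPKM + 1)) to 3232 (all libraries in one fit), against 2540. With the same limma scale lowest and DESeq2 highest, they ran from 0 to 998 at 8 days, against 610. At 11 days they ran from 95 to 1635 with the same extremes, against 1006. On log2(FPKM + 0.1) limma called 5 genes at 8 days and 121 at 11 days. No sign turned among the 486 values of single genes under these alternatives.

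With 1 library left out, the 9 genes gave 5 to 7 calls at 4 days, 0 to 3 at 8 days, 1 to 4 at 11 days, 6 to 8 over the 4 groups, 0 to 3 between 8 and 4 days and 2 to 5 between 11 and 4 days, and others 7 to 14, 0 to 3 and 1 to 3 at 4, 8 and 11 days. Of all genes, these fits called 1387 to 2973 at 4 days, 259 to 912 at 8 days and 527 to 1422 at 11 days. They called 2198 to 3890 over the 4 groups, 5 to 700 between 8 and 4 days and 974 to 2823 between 11 and 4 days. Signs turned within the ranges -0.018 to 0.371 (C3, 4 days), -0.143 to 0.496 (C7, 4 days), -0.033 to 0.639 (C7, 11 days) and -0.072 to 0.18 (C3ar1, 11 days). Without the 2 deepest saline libraries, chosen after the data were seen, calls were 1 and others 3 at 4 days, 0 and others 0 at 8 days, and 0 and others 1 at 11 days, and signs turned for C3 (-0.224) and C7 (-0.49) at 4 days, C3 (-0.026) and C7 (-0.022) at 8 days, and C1qc (-0.012) and C7 (-0.386) at 11 days. Of all genes, 543 were called at 4 days, 264 at 8 days and 328 at 11 days, against 2540, 610 and 1006 with all libraries. Without the 2 deepest 4-day libraries, calls were 1 and others 4 at 4 days and 0 between 11 and 4 days. Of all genes, 579 and 307 were then called, against 2540 and 2178 with all libraries. The causes were not tested, beyond the fewer samples.

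The replicate letter gave no pairing, since correlations of deviations between libraries of the same letter ran from -0.286 to 0.287, and a library was most like its own letter in 6 of 42 comparisons. A replicate block gave 7 calls among the 9 genes at 4 days, 5 and others 3 at 8 days, and 5 and others 4 at 11 days. Of all genes it called 2080, 694 and 1108 at these times, against 2540, 610 and 1006 without a block. It called C4b at 4 days (0.625, adjusted p = 0.0291), C3 (0.62, adjusted p = 0.00447), C4b (0.98, adjusted p = 0.000218) and C7 (1.0, adjusted p = 0.00717) at 8 days, besides Serping1, and C3 (0.76, adjusted p = 0.0284) and C4b (0.85, adjusted p = 0.0112) at 11 days, besides C1qa. Depth limits Cfb most, at 13 counts in its poorest library.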
